A study of Mus musculus with 13 samples.

Results

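The interferon response genes described here are 10 mouse genes that cells switch on when interferon reaches them: Rsad2, Mx1, Ifit1, Ifit2, Ifit3, Oasl2, Isg15, Irf7, Cxcl10 and Psmb9. They were chosen by name, with earlier results of these data known, and were looked up by gene symbol in the authors' 3 deposited tables, which together list 1593 genes. Of the 10 genes, 5 were in a table. RNA was sequenced from primary cultures of astrocytes, the supporting glia of brain, retina and optic nerve. The cells came from C57BL/6 mice (wild type, postnatal days 1 to 3), from retina together with optic nerve, and grew in DMEM/F12 with 10% fetal bovine serum. There were 13 samples, all taken after 24 h: 3 with SB431542, 3 with HLM006474, 3 with an inhibitor of RUNX1, and 4 with vehicle. SB431542 blocks the kinase of the TGF-beta and activin type I receptors, HLM006474 inhibits E2F transcription factors, and the third compound inhibits the transcription factor RUNX1 with its partner CBFB and is called the RUNX1 inhibitor here. The labels give neither the doses nor whether the replicates were separate cultures, so p-values cover only the spread among these samples, and that spread may be technical. Each compound is set against vehicle.

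Interferons are secreted proteins that signal infection. Type I interferons act through IFNAR receptors and the kinases JAK1 and TYK2 on a complex that holds STAT2 and IRF9 and binds interferon-stimulated response elements in promoters; interferon gamma acts on gamma-activated sequences. The products block viral replication, tag proteins with ISG15, cut proteins into peptides for MHC class I, and attract lymphocytes. In the brain and retina both microglia and astrocytes can mount this response.

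Under SB431542, 5 of the 10 genes were higher than with vehicle and none was lower, in the authors' deposited table. They were the antiviral effectors Rsad2, Mx1 and Ifit1, the chemokine Cxcl10 and the immunoproteasome subunit Psmb9. Of all genes tested for SB431542, 2.29% were listed as higher. Ifit2, Ifit3, Oasl2, Isg15 and Irf7 were in none of the tables. With HLM006474 and with the RUNX1 inhibitor none of the 10 was listed, where 5.64% and 2.93% of all genes tested were listed in either direction. A gene was listed when its adjusted p was under 0.05 by the authors' DESeq2 test and its fold change was at least about 1.5, so a gene outside a table may have changed by less or may not have been tested. In these bulk cultures, more cells of a type and more RNA per cell cannot be told apart, nor can fewer cells and less RNA per cell. Values per sample were not analysed here, so each value below is the authors' fold change with its standard error, and overlap between samples of the groups cannot be read.

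Among the antiviral effectors, Rsad2 encodes viperin, an enzyme that makes a nucleotide analogue which ends viral RNA chains. The gene lies on chromosome 12 at chr12:26442746-26456452 (GRCm38, minus strand). In the authors' deposited table its log2 fold change under SB431542 was 1.20 ± 0.25 (standard error), a 2.30-fold rise with a 95% interval of 1.65 to 3.22. The adjusted p was 1.47e-05 by DESeq2, at a mean normalised count of 83.2 over all libraries. By size of rise it stood at place 113 of the 347 higher genes.

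Ifit1 binds viral RNA whose cap lacks the methyl groups of host messenger RNA. It lies on chromosome 19 at chr19:34640871-34650009 (GRCm38, plus strand). Its log2 fold change under SB431542 was 0.87 ± 0.25 in the authors' deposited table, 1.82-fold with an interval of 1.31 to 2.55 (adjusted p = 0.00359, DESeq2), at a mean count of 95.6. Ifit2 and Ifit3, whose proteins bind RNA together with IFIT1, are in the same cluster, which spans 99.3 kb from the start of Ifit2 to the end of Ifit1. Neither was in any table. Ifit3 has a close copy, Ifit3b, and Ifit1 has related genes such as Ifit1bl1, between which reads could be split. How the authors counted such reads is not given in the sources used here.

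Mx1 encodes a dynamin-like GTPase that blocks influenza virus in the nucleus of mouse cells that carry an intact gene. C57BL/6 mice, like many laboratory strains, carry a defective allele, and RefSeq labels the gene in this strain a transcribed pseudogene. GENCODE M21 labels it protein coding (chr16:97447035-97462907, GRCm38, minus strand). Its log2 fold change was the largest of the 5, 2.37 ± 0.92 in the authors' deposited table. The interval was also the widest, from 1.48-fold to 17.9-fold, at a mean normalised count of only 6.55. Its adjusted p of 0.0480 by DESeq2 lay just under the limit of 0.05, at place 342 of the 347 higher genes.

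Cxcl10 encodes a chemokine that attracts activated T cells and is made by astrocytes as well as myeloid cells. It lies at chr5:92346638-92348889 (GRCm38, minus strand). Its log2 fold change under SB431542 was 0.80 ± 0.20 in the authors' deposited table, 1.74-fold with an interval of 1.32 to 2.30 (adjusted p = 0.000948, DESeq2), at a mean count of 165. This was the smallest rise of the 5, 0.22 above the smallest change that the table lists. Psmb9 encodes a catalytic subunit of the immunoproteasome, the form of the proteasome that cuts peptides for MHC class I. It lies at chr17:34181987-34187764 (GRCm38, minus strand), in the MHC region. Its log2 fold change was 0.91 ± 0.16 in the authors' deposited table, 1.87-fold with an interval of 1.51 to 2.32. At an adjusted p of 1.9e-07 by DESeq2 and a mean count of 157 it had the lowest adjusted p of the 5 genes, at place 117 of the 347 higher genes.

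**Figure D1:**
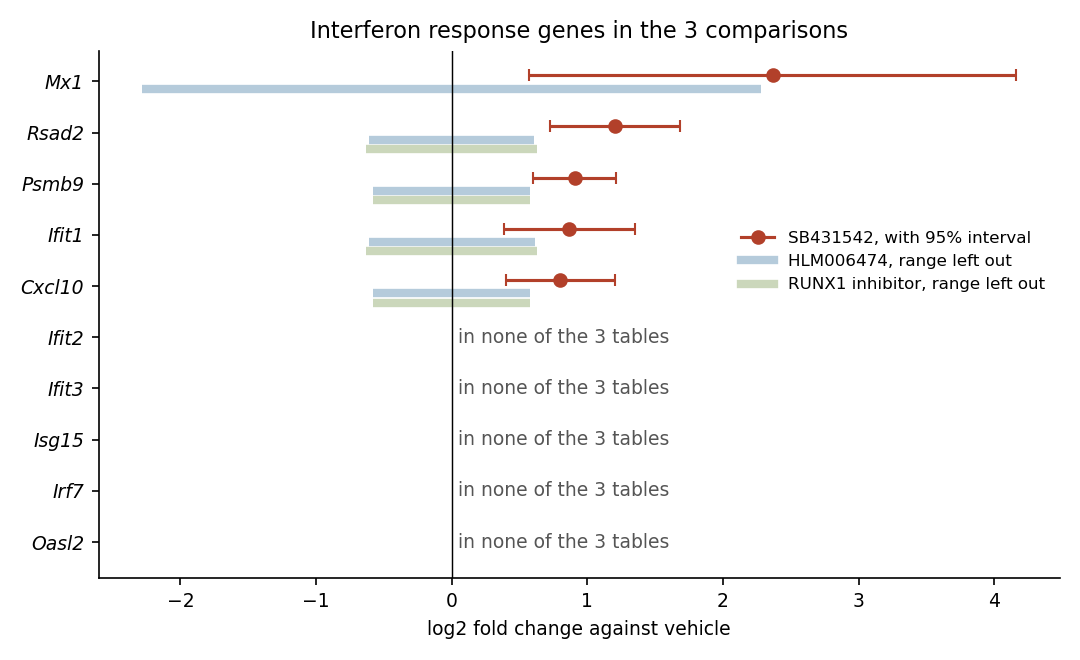
Log2 fold changes of the 10 interferon response genes against vehicle. Points with bars are the 5 genes listed for SB431542 with 95% intervals, and pale bars show the range in which a gene would have stayed outside the HLM006474 and the RUNX1 inhibitor tables, if its error there was that under SB431542. All 5 points lie to the right of 0, from 0.80 for Cxcl10 to 2.37 for Mx1, and no bar of the RUNX1 inhibitor is drawn for Mx1.

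Isg15 encodes a small protein that is joined to other proteins as ubiquitin is. Irf7 encodes the transcription factor that amplifies production of type I interferons, and Oasl2 a member of the oligoadenylate synthetase-like family. Because these 3 genes and Ifit2 and Ifit3 were in no table, their fold changes and counts were not analysed here.

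The mean counts and fold changes together imply approximate levels per group. They were computed with no change under the other compounds, and a range was obtained by letting both other compounds move the gene up or down to the limit of their tables. For Rsad2 the implied level was 147 normalised counts per library (range 124 to 168) with SB431542, against 64.0 (53.7 to 73.0) with vehicle. Ifit1 came to 147 (121 to 170) with SB431542 and 80.4 (66.5 to 93.0) with vehicle. These are moderate levels, at which counting itself is fairly precise. Cxcl10 came to 245 (205 to 282) with SB431542 and 141 (118 to 162) with vehicle. Psmb9 gave 245 (206 to 281) with SB431542 and 131 (110 to 150) with vehicle. For these 4 genes the ranges with SB431542 and with vehicle did not overlap, which follows from the fixed fold change and is no test. For Mx1 the estimate was 17.2 counts (8.89 to 21.2) with SB431542, against 3.34 (1.73 to 4.12) with vehicle, so its rise rests on few reads; whether Mx1 was tested with the RUNX1 inhibitor at all is unknown, and its range assumes the same limit there. Per kilobase of merged exons in GENCODE M21, the mean count was 73.2 for Cxcl10, 42.9 for Psmb9, 36.0 for Ifit1, 19.2 for Rsad2 and 1.73 for Mx1. Averaged over all libraries, Cxcl10 thus had the highest mean count per length and Mx1 the lowest.

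**Figure D2:**
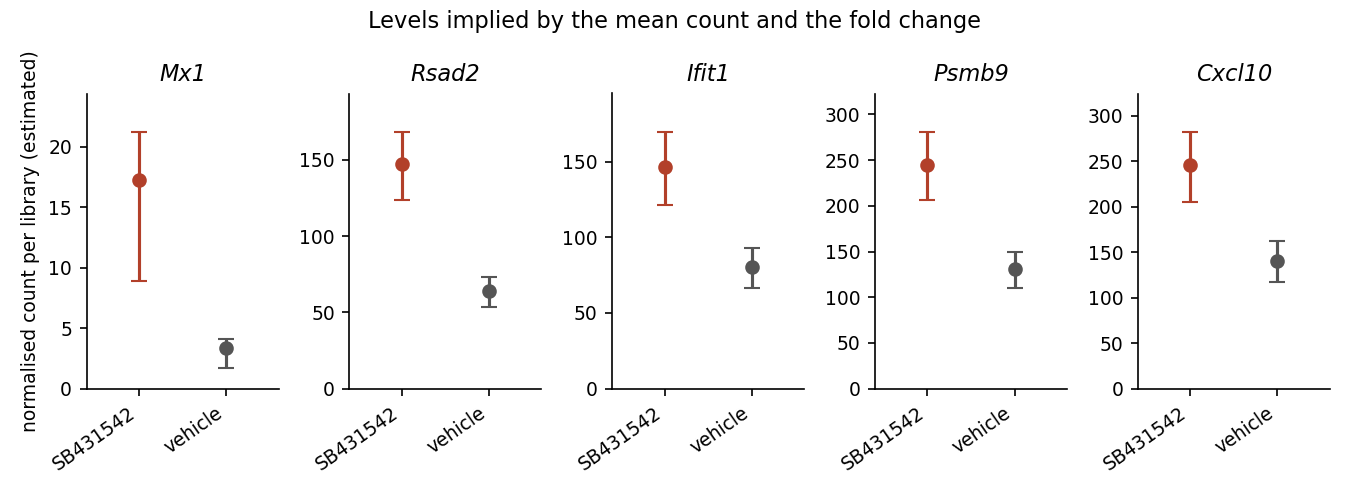
Normalised counts per library estimated from the authors' mean count and fold change, for SB431542 (red) and vehicle (grey). Points assume no change under HLM006474 and the RUNX1 inhibitor, and bars span what the limits of those tables allow; the axes start at 0 and differ between genes, from about 17.2 counts for Mx1 to 245 for Cxcl10 and Psmb9 with SB431542.

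The standard errors are those of the authors' DESeq2 fit and are no direct measure of the spread among samples. They were 1.90 times (Psmb9) to 2.53 times (Cxcl10) the error that counting alone would give at the implied levels. Beside other genes of the SB431542 table with a mean count within a factor of 1.5, the error of Psmb9 was on the low side, 0.16 against a median of 0.18 over 169 genes. That of Cxcl10 was higher than the median, 0.20 against 0.17 over 166 genes. The error of Ifit1 was 0.25 against 0.20 over 139 genes, that of Rsad2 0.25 against 0.22 over 125 and that of Mx1 0.92 against 0.77 over 30. Only listed genes enter these medians, and listing favours small errors, so the medians may be low.

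**Figure D3:**
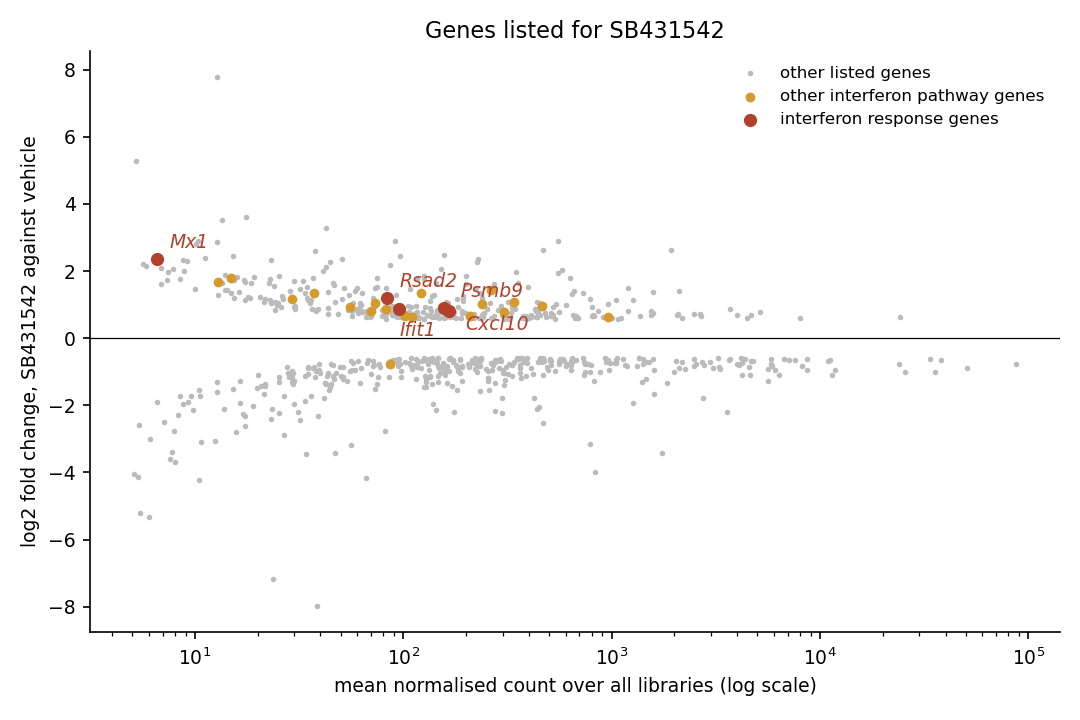
Log2 fold change under SB431542 against the mean normalised count (log scale) for the genes of the authors' table, save 1 gene beyond the axis. Red points are the 5 interferon response genes, orange points the other interferon pathway genes, grey points the rest; Rsad2, Ifit1, Psmb9 and Cxcl10 lie at mean counts of 83.2 to 165 and Mx1 at 6.55.

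Whether the 5 genes differed between SB431542 and the other inhibitors was tested with a bound, since they lack a value in the other tables. A gene outside a table was placed at the edge of that table's limits, and its error was taken from the SB431542 comparison. Rsad2 then lay between 0.59 and 1.81 higher on the log2 scale with SB431542 than with HLM006474, before error, and the nearer value gave an adjusted p of 0.371 (2-sided z test, Benjamini-Hochberg over 587 genes). Against the RUNX1 inhibitor it lay between 0.58 and 1.83 higher (adjusted p = 0.325, over 573 genes). None of the 9 such comparisons of the 5 genes passed, with adjusted p from 0.325 to 0.986. Mx1 was not compared with the RUNX1 inhibitor, because its mean count is below 21.6, the smallest in the RUNX1 inhibitor table. The data therefore do not show that the rise of these genes was particular to SB431542. All comparisons share the vehicle samples.

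More of the pathway was read from 130 other genes in lists by role, which do not hold every interferon-related gene. Outside the lists, for example, Ifit1bl2 was higher with SB431542, at 1.00 ± 0.37, and Tlr8 lower, at -0.60 ± 0.17, in the authors' deposited table. With SB431542, 18 of the 130 were higher (13.8%) and 1 was lower (0.769%), beside 2.29% and 2.64% of all genes tested. The list shares are over every gene named, tested or not, while the others are over genes tested only. Antiviral effectors made up most of the higher genes: 11 of 48 were higher and none lower. Oas3 and Oas1g, of the oligoadenylate synthetase family, had log2 fold changes of 1.78 ± 0.44 and 1.68 ± 0.58 in the authors' deposited table, at mean counts of only 14.8 and 12.8; they were chosen for mention after their values were seen. Oas1g belongs to a cluster of similar copies, so its reads are uncertain. Slfn2 and Slfn5, Schlafen family genes, had log2 fold changes of 1.08 ± 0.11 and 0.88 ± 0.22, and Ifitm1, a membrane protein that hinders viral entry, had 0.68 ± 0.12, in the authors' deposited table. Also higher were Rtp4, Xaf1, Mndal, Phf11d and Sp100.

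Of 15 interferon-induced GTPases, which attack the vacuoles of intracellular microbes, 4 were higher with SB431542 and none lower. Gbp5 stood at 1.34 ± 0.18, Gbp6 at 0.96 ± 0.15, Gbp7 at 0.77 ± 0.14 and Gbp2 at 0.65 ± 0.081 in the authors' deposited table, with adjusted p of at most 3.79e-07 by DESeq2. Among 14 sensors and adaptors 2 were higher and 1 lower. The kinase gene Ikbke, whose product activates IRF3 and IRF7, stood at 1.03 ± 0.12 and Dhx58, a helicase of the RIG-I family, at 1.04 ± 0.31 in the authors' deposited table. Tlr9, the endosomal receptor for DNA, was lower at -0.77 ± 0.19 in the authors' deposited table. Of 3 chemokines in the list Ccl5 was higher, at 1.34 ± 0.38 in the authors' deposited table.

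Other lists held no listed gene under SB431542, where 2.29% of all genes tested were listed as higher and 2.64% as lower. These were the 6 interferon genes, the 6 receptors, the 11 JAK, STAT and IRF genes including Irf9, the 4 genes of ISG15 conjugation including Usp18, and the 3 signalling inhibitors. Also unlisted were all 20 other genes in the list of antigen processing and presentation, among them Tap1, Psmb8 and B2m. How far each of these unlisted genes changed cannot be read from tables that hold listed genes only. That list does not hold every gene of the role. Outside it, H2-DMa at -0.64 ± 0.19 and Ctss at -0.69 ± 0.054 were lower with SB431542 by the authors' DESeq2 test. H2-DMb2 was lower too, at -4.15 ± 1.26 and a mean count of only 5.31.

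**Figure D4:**
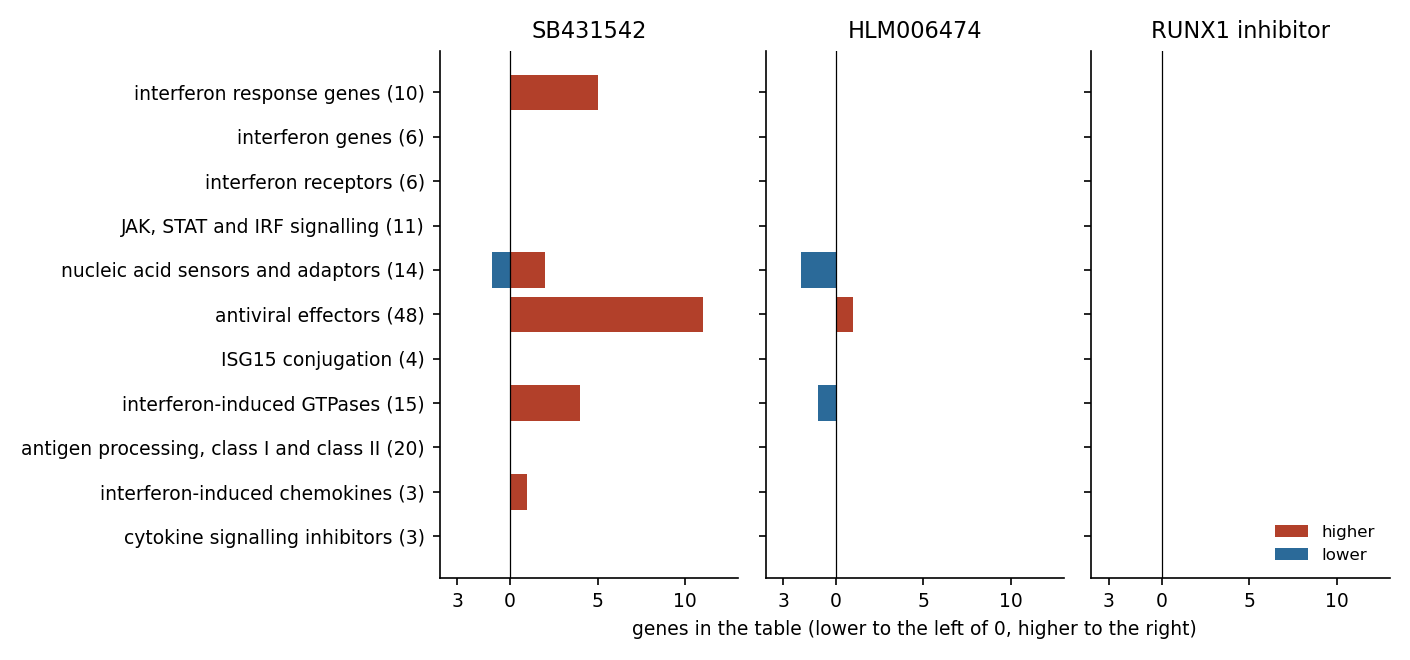
Number of genes of each interferon list in each table, with the list's size in brackets; bars to the right of 0 count higher genes, bars to the left lower genes. With SB431542 the interferon response genes (5 of 10), antiviral effectors (11 of 48) and GTPases (4 of 15) have the longest bars, and the panel of the RUNX1 inhibitor is empty.

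With HLM006474 1 of the 130 genes was higher (0.769%, beside 1.42% of all genes tested), Ifit1bl1 at 0.91 ± 0.34 in the authors' deposited table, and 3 were lower (2.31%, beside 4.22% of all genes tested). The lower ones were Gbp5 at -0.66 ± 0.20, Tlr9 at -0.58 ± 0.18 and Sting1, the adaptor of cytosolic DNA sensing, at -0.65 ± 0.25 in the authors' deposited table. With the RUNX1 inhibitor none of the 130 was listed, where 2.93% of all genes tested were listed in either direction. Gbp5 was thus listed in opposite directions. Its log2 fold change was 2.0 ± 0.27 higher with SB431542 than with HLM006474 (2-sided z test, adjusted p = 2.08e-12 over the 161 genes in both tables). Listing in opposite directions already requires a large difference, so this test adds little. For Tlr9 the difference between SB431542 and HLM006474 was -0.19 ± 0.26 (adjusted p = 0.715). Among genes listed for SB431542 alone, the bound on the difference passed for Slfn2 against HLM006474 (adjusted p = 0.00904) and against the RUNX1 inhibitor (adjusted p = 0.00648), by the same 2-sided z test. Gbp5, listed for HLM006474 as well, passed against the RUNX1 inhibitor by that test (adjusted p = 0.0169). Of all genes so compared, 85 of 587 passed against HLM006474 and 108 of 573 against the RUNX1 inhibitor.

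**Figure D5:**
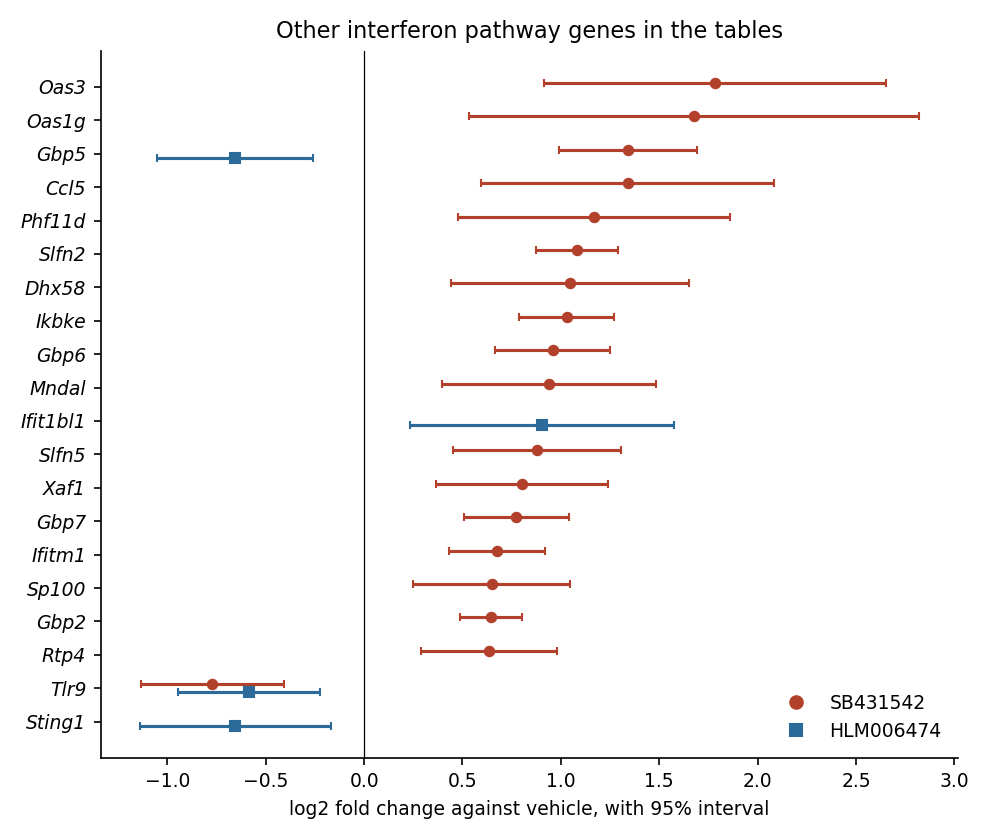
Log2 fold changes against vehicle, with 95% intervals, of the other interferon pathway genes that were in a table and are reported here, SB431542 as red circles and HLM006474 as blue squares. The SB431542 values of the higher genes shown run from 0.64 (Rtp4) to 1.78 (Oas3), Gbp5 lies on both sides of 0, and Tlr9 is below 0 for both compounds.

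Markers of microglia and macrophages, cells that respond strongly to interferon, were also counted in the cultures, and some moved with the same treatment. Of 18 markers, 3 were higher (16.7%) and 6 lower (33.3%) with SB431542, beside 2.29% and 2.64% of all genes tested. The higher ones were Cd68 at 0.72 ± 0.075, the myeloid transcription factor gene Spi1 at 0.67 ± 0.073 and, in the same deposited table of the authors, Lyz2 at 0.65 ± 0.18. Among the lower ones were Tmem119 at -4.00 ± 0.11, Cx3cr1 at -2.21 ± 0.081, P2ry12 at -1.19 ± 0.17, Fcrls at -0.95 ± 0.057 and C1qa at -0.66 ± 0.052 in the authors' deposited table. With HLM006474 1 marker was higher, Lyz2, and 4 were lower, Tmem119, Fcrls, Aif1 and P2ry12. These were 5.56% and 22.2% of the markers, beside 1.42% and 4.22% of all genes tested. None of the 18 markers was listed with the RUNX1 inhibitor, where 2.93% of all genes tested were listed in either direction. Mean counts of the SB431542-listed markers ran from 255 for P2ry12 to 24249 for Lyz2, in the authors' deposited tables. Of 13 astrocyte and Müller glia markers Kcnj10 was lower with SB431542, at -0.77 ± 0.037 and a mean count of 23892.5 in the authors' deposited table, and the other 12 were not in that table, so the astrocyte label could not be checked against their levels. None of 5 markers of lymphocytes and plasmacytoid dendritic cells was in any table. The part of these cell types in the rise of the interferon genes was not tested, and the cell type in which each gene rose is unknown.

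The core of the interferon-stimulated response element was present in 5 of the 9 genes with a promoter window. Because the genes were chosen as interferon response genes, its presence is no independent support for a response in these cultures. Promoter windows of 300 bases, 250 before and 50 after the start, were taken from RefSeq (GRCm38.p6) and matched 9 of the 10 genes, all save Mx1. They were searched on both strands for the response element core, which is GAAA followed by any 2 bases and GAAA again (or, on the other strand, TTTC, any 2 bases and TTTC). It was present in Rsad2, Ifit1 and Cxcl10 among the 4 listed genes with a window, and in Ifit3 and Isg15 among the 5 unlisted ones. Of all 32851 windows 3.44% hold it, and of 27025 genes with a window 3.99%. These 5 windows are shown because they hold the core in listed and unlisted genes alike. Capitals mark each core, overlapping ones being merged.
Rsad2 (chr12:26456403-26456702, minus strand, listed): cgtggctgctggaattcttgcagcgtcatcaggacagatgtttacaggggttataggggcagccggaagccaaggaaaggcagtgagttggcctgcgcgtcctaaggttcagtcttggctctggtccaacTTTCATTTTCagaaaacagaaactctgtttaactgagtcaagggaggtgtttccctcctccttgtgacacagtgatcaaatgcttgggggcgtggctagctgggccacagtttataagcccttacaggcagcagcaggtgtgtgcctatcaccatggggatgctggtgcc
Ifit1 (chr19:34640639-34640938, plus strand, listed): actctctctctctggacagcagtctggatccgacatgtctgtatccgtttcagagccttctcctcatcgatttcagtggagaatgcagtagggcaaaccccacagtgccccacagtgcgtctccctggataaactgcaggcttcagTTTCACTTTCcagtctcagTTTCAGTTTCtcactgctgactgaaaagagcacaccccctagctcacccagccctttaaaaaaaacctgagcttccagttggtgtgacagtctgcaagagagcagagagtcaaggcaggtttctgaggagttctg
Cxcl10 (chr5:92348840-92349139, minus strand, listed): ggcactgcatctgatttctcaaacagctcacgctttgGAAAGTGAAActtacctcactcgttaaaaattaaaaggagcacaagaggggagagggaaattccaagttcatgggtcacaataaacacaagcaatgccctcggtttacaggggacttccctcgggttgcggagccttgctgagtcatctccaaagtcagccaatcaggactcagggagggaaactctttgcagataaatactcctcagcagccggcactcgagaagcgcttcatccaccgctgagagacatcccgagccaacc
Ifit3 (chr19:34583279-34583578, plus strand, not listed): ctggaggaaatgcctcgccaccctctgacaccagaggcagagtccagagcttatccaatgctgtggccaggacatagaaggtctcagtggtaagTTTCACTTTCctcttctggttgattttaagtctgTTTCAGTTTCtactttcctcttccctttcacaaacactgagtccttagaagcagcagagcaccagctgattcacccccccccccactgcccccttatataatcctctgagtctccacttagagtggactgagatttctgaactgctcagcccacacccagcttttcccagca
Isg15 (chr4:156200769-156201068, minus strand, not listed): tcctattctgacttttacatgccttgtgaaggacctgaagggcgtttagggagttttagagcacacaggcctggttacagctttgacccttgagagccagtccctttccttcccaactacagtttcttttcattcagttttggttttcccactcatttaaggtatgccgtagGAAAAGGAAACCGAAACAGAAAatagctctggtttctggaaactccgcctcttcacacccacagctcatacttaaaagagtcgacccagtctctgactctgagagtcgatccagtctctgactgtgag

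The Ifit1 and Ifit3 windows hold the same pair of cores, TTTCACTTTC and TTTCAGTTTC, beginning 104 and 85 bases before the start of Ifit1 and 156 and 122 bases before that of Ifit3. Isg15 holds 3 overlapping cores, Rsad2 has 1, TTTCATTTTC, and Cxcl10 has 1, GAAAGTGAAA. Psmb9, listed, and Ifit2, Irf7 and Oasl2, unlisted, have none of these letters in their windows. The gamma-activated core, which is TTC followed by any 3 bases and GAA, present in 8.30% of all windows, was found in Ifit2 alone. In the other lists, 7 of 13 genes that were higher with SB431542 and have a window hold the response element core, as do 31 of 85 that were not in that table, beside 3.99% of 27025 genes. The 7 were Gbp2, Gbp5, Gbp7, Mndal, Oas1g, Oas3 and Slfn5. A match describes the letters only, and no binding was measured.

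The pattern of the listed genes, higher with SB431542 and in neither other table, was that of 274 of the 347 genes higher with SB431542, a count that includes the members themselves. Among these genes with the same pattern, the members themselves aside, those nearest to the median of the 5 members (0.91) in log2 fold change were Tm6sf1 at 0.90 ± 0.17, Tyw3 at 0.91 ± 0.31, Abhd11os at 0.90 ± 0.31, Sbsn at 0.89 ± 0.32 and Lmo2 at 0.89 ± 0.086 in the authors' deposited table, over 3 comparisons. With a stricter limit of at least 2-fold, 2 of the 10 members were listed for SB431542, Rsad2 and Mx1, beside 1.01% of all genes tested.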

How the data were processed

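RNA of 13 astrocyte culture samples was sequenced. The submitters' processing notes name CASAVA 1.8, STAR 2.7, DESeq2 1.30.1 and build GRCm38. The sources used here do not give the read counter, its annotation or strandedness. Per the file headers, the authors deposited for each listed gene a mean normalised count (a signal averaged over libraries), the log2 fold change and its standard error, a Wald score, a p-value and an adjusted p-value. The smallest listed fold change was about 1.5 and the largest adjusted p 0.0499. The number of genes tested (15169 for SB431542 and HLM006474, 13561 for the RUNX1 inhibitor) was recovered from the ratio of p to adjusted p, ranks being called whole within 0.02. Depth per library is unknown.

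Members and lists were chosen with earlier results of these data known. Named are all members, other pathway genes in a table, macrophage markers and 5 genes nearest in fold change; some of these genes are counted but not reported here. Differences between compounds were tested with a z test that leaves out the shared vehicle covariance; motif and interval code used Python 3.11.15, pandas 2.3.3 and scipy 1.17.1. All 130 list genes matched RefSeq symbols. Alternatives were a stricter adjusted p, a 2-fold limit, a mean count of at least 50, Bonferroni adjustment, the shared covariance and 1 mismatch in the motif.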

Additional observations from a re-analysis of the deposited data

Results flagged for a closer look

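Gbp5, an interferon-induced GTPase gene outside the 10 members, was flagged because it was listed in opposite directions for 2 inhibitors: 1.34 ± 0.18 with SB431542 and -0.66 ± 0.20 with HLM006474 in the authors' deposited tables, log2 fold changes against the same vehicle samples. The difference, SB431542 minus HLM006474, was 2.0 ± 0.27 (2-sided z test, adjusted p = 2.08e-12 over 161 genes). Both values had already passed the authors' limits with opposite signs, so the test adds little. How many of the 161 genes were listed in opposite directions is not given here.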

How the results depend on the processing

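With a limit of at least 2-fold, the members higher with SB431542 numbered 2 in place of 5, and the other pathway genes 9 in place of 18, with 0 in place of 1 lower. For HLM006474 that limit left 0 pathway genes higher and 0 lower, in place of 1 and 3, and an adjusted p under 0.01 or a mean count of at least 50 also left 0 higher. Mx1 (2.37) no longer passed at an adjusted p under 0.01 (0.0480) or after Bonferroni adjustment of the DESeq2 p (adjusted p = 1), and Cxcl10 (0.80) and Ifit1 (0.87) no longer passed after Bonferroni adjustment of the DESeq2 p (adjusted p = 1 each), which is stricter by construction. With the covariance of the shared vehicle samples, none of the 9 bounds on members passed (adjusted p from 0.0941 to 0.972, 2-sided z test). Outside the members, the bounds for Ikbke passed only with that covariance. By the same z test, adjusted p was then 0.00419 against HLM006474 and 0.00329 against the RUNX1 inhibitor. Allowing 1 mismatch, 4 of the 5 unlisted members in place of 2 held the response element core, and listed members stayed at 3 of 4. With that setting it was in 35.4% of all windows and in 38.9% of the 27025 genes with a window. The other results kept their side of the threshold or stayed within 1.5 times: 15 at an adjusted p under 0.01, 7 at 2-fold, 11 at the mean count limit, 2 after Bonferroni adjustment, 11 with the shared covariance and 1 with the mismatch. The 7 at 2-fold were all counts of 0 from the start, which a stricter limit cannot change. Such counts are also among the 15 at an adjusted p under 0.01 and the 11 at the mean count limit. No paired analysis was possible because the tables give 1 value a group comparison and none a sample, and for the same reason no replicate could be left out. Depth limits Mx1 most, at a mean count of 6.55. No count at an unadjusted p can be given for the unlisted genes.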
